A study of Saccharomyces cerevisiae with 6 samples.

Results

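The genes described here encode the core of protein kinase A signalling in budding yeast and the kinases and transcription factors through which that pathway and its neighbours govern entry into quiescence. The rule named 9 genes and took every array feature that the platform annotation assigns to one of them. It found 8 genes with 1 feature each, namely TPK2, TPK3, BCY1, PDE2, YAK1, SCH9, MSN2 and MSN4, out of 6912 features and 5365 named genes on the array. For RIM15, the remaining gene of the rule, no annotated feature was found under its name, its synonym or its gene identifier, and it was not analysed here. The gene table (assembly R64) gives the 8 measured genes the systematic names YPL203W, YKL166C, YIL033C, YOR360C, YJL141C, YHR205W, YMR037C and YKL062W, in the order above.

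When glucose is plentiful, cyclic AMP binds Bcy1, the regulatory subunit of the kinase, and frees catalytic subunits such as Tpk2 and Tpk3. Active kinase A promotes growth and holds back Rim15, Yak1, Msn2 and Msn4, which act in stress resistance and in quiescence, while Sch9 is a related growth kinase under the TORC1 complex. Much of this control is known to act on the proteins, through cyclic AMP, phosphorylation and movement in or out of the nucleus, so transcript levels show a different layer from kinase activity.

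Cy5-labelled cDNA came from Saccharomyces cerevisiae S288C exposed for 2 h to 3.3 mM tetrachloroethylene, a chlorinated solvent, and Cy3-labelled cDNA from cells of the same strain taken before the solvent was added. Both came from exponential growth at 25 °C in YPD, a rich medium with glucose. The labels call the 3 hybridisations independent biological samples, and every array was read by 2 scans of different laser power, so 6 columns of values stand for n = 3. All arrays carry the treated cells in Cy5 and the comparison is with cells at time 0, so effects of the dye and of the elapsed hours cannot be told apart from that of the solvent.

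Each value is a log2 ratio of treated over untreated cells, where 1 means a doubling. Neither base nor direction is stated in the labels, and both were read from the dye labels and from GEO's convention for 2-channel values. A ratio gives no absolute level, so the genes cannot be ranked by abundance, and the identity of the strain could not be checked against marker levels. Fewer cells of one kind and less RNA per cell cannot be told apart in such cultures. Hybridisation 1 stood apart from the other two: across 5349 genes its ratios correlated with those of hybridisations 2 and 3 at r = 0.56 each, whereas hybridisations 2 and 3 correlated at 0.84. Genes share an array and are not independent replicates, so these coefficients are a description. Results that rest on hybridisation 1 are given with and without it.

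None of the 8 measured genes passed the threshold, an adjusted p of 0.05 by limma with Benjamini-Hochberg adjustment over 5349 genes, which 21.0% of all tested genes did. In simulated data the same fit called 0 of 334 changes of 1.5-fold. Fewer genes changed there than passed here, which makes the adjustment stricter, so that count does not give the power of this test. A gene that did not pass may still have changed. At an unadjusted p under 0.05 there were 2 of the 8, where the share over all genes was 38.6%. They were MSN4, on the higher side with 17.7% of all genes, and TPK3, on the lower side with 20.9%. The mean log2 ratios ran from -0.58 for TPK3 to 0.47 for MSN4, within a range over all genes of -2.27 to 4.24. The median size of the mean ratio, whatever its sign, was 0.35 for the 8 genes and 0.40 for all genes. Ratios had the same sign in all 3 hybridisations for 5 of the 8 genes, against 58.8% of all genes. TPK2, BCY1, YAK1 and MSN4 were above 0 in all 3, as were 27.5% of all genes, and TPK3 was below 0 in all 3, as were 31.3%.

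**Figure D1:**
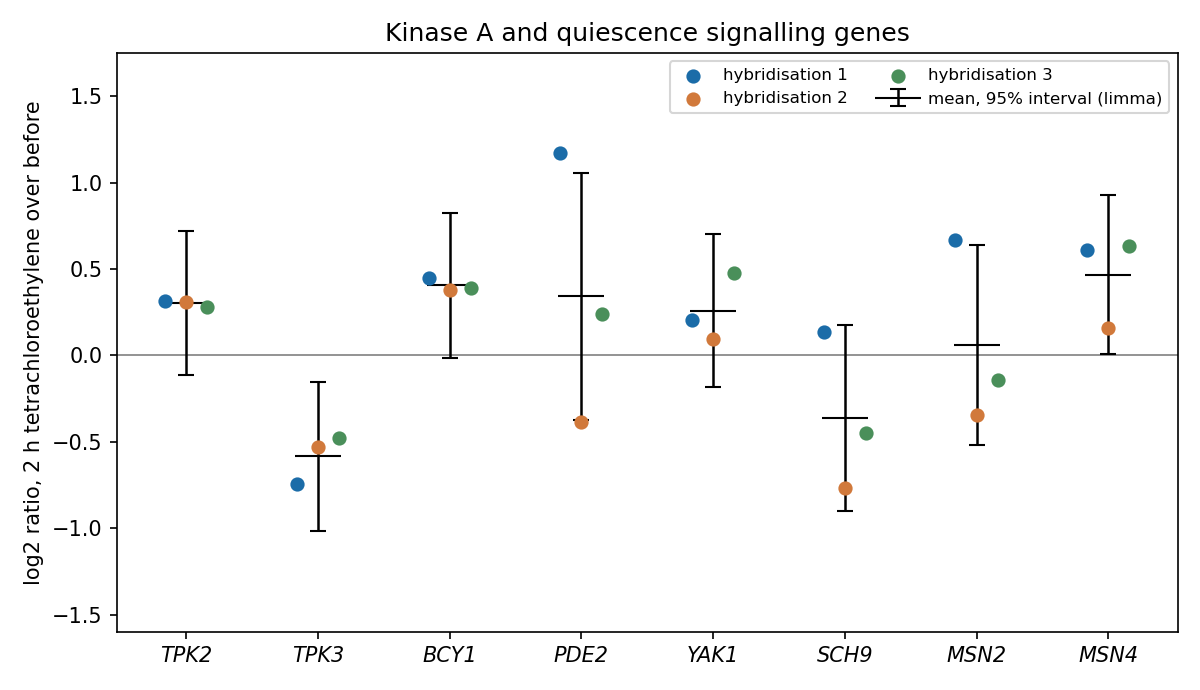
Log2 ratio of treated over untreated cells (vertical axis) for the 8 genes (horizontal axis). Points are the 3 hybridisations, each the mean of its scans, and black bars are the mean with limma's 95% interval. TPK2 and BCY1 have nearly coinciding points above 0, TPK3 has 3 points below 0, and PDE2, SCH9 and MSN2 have points on both sides of 0.

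The catalytic subunits of kinase A had ratios of opposite sign, and neither passed the threshold. TPK3, a catalytic subunit, had log2 ratios of -0.74, -0.53 and -0.48 in hybridisations 1, 2 and 3. All values were below 0 and the lowest was that of hybridisation 1, which rests on the high power scan alone because the low power scan held no value. The mean was -0.58 ± 0.14 (SD, n = 3), or 1.499-fold lower, with a 95% interval of -1.01 to -0.15 and an adjusted p of 0.0614 by limma. TPK3 thus lay just outside the threshold, at an unadjusted p of 0.0150. Its mean ratio was at the 17.1th percentile of all genes.

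TPK2, also a catalytic subunit, had ratios of 0.32, 0.31 and 0.28. The hybridisations were nearly equal and all above 0, with a mean of 0.30 ± 0.020 (SD, n = 3), or 1.23-fold, and an adjusted p of 0.248 by limma. Only 0.411% of tested genes had an SD as small or smaller. The limma fit shares its estimate of spread over all genes, which gave TPK2 a standard error of 0.18 and an interval of -0.11 to 0.72. Single scans of TPK2 ranged more widely, between 0.19 and 0.38, and all 6 were above 0.

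Within each hybridisation TPK3 lay below TPK2, by -1.06, -0.84 and -0.76 on the log2 scale. The mean difference was -0.89 ± 0.16 (SD, n = 3), which makes the TPK3 ratio 1.85-fold lower than that of TPK2. An exact two-sided sign-flip permutation test gave p = 0.25, the smallest value that 3 hybridisations allow, so the test could not pass 0.05. Adjusted over the 2 pairs tested, the exact permutation p was 0.5. After the features were split into 32 equal blocks of consecutive identifiers and each block was centred on its median, the difference was -0.57. TPK genes are related in sequence, and cross-hybridisation between their probes was not tested.

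BCY1, which encodes the regulatory subunit that inhibits the kinase in the absence of cyclic AMP, had ratios of 0.45, 0.38 and 0.39. All hybridisations lay close together above 0, and 1.14% of tested genes had an SD as small or smaller. The mean was 0.41 ± 0.038 (SD, n = 3), or 1.32-fold, with an interval of -0.012 to 0.82 and an adjusted p of 0.139 by limma. Agreement was looser between scans, which ran from 0.18 to 0.59, both ends coming from hybridisation 3. Block centring brought the mean of BCY1 to 0.16.

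Set against BCY1 within each array, a contrast chosen after the values were seen and so not tested, TPK2 differed by -0.10 ± 0.033 (SD, n = 3) and TPK3 by -0.99 ± 0.18. The difference between TPK2 and BCY1 was 0.025 with the high power scans alone and 0.18 after block centring, so its sign depended on the processing. TPK3 lay below BCY1 in each hybridisation, by -1.19, -0.91 and -0.87, and by a mean of -0.39 after block centring.

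PDE2, the high-affinity phosphodiesterase that breaks down cyclic AMP, was the most variable of the 8 genes. Its ratios were 1.17, -0.39 and 0.24 in hybridisations 1, 2 and 3. Hybridisation 1 was high, hybridisation 2 was below 0 and hybridisation 3 lay between them, and both scans of each array had the same sign. The mean was 0.34 ± 0.78 (SD, n = 3), with an interval of -0.38 to 1.06 and an adjusted p of 0.440 by limma. Without hybridisation 1 the mean was -0.074, with an adjusted p of 0.786, and after block centring it was 0.71, with an adjusted p of 0.194. PDE2 had an SD at the 92.8th percentile of all genes.

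**Figure D2:**
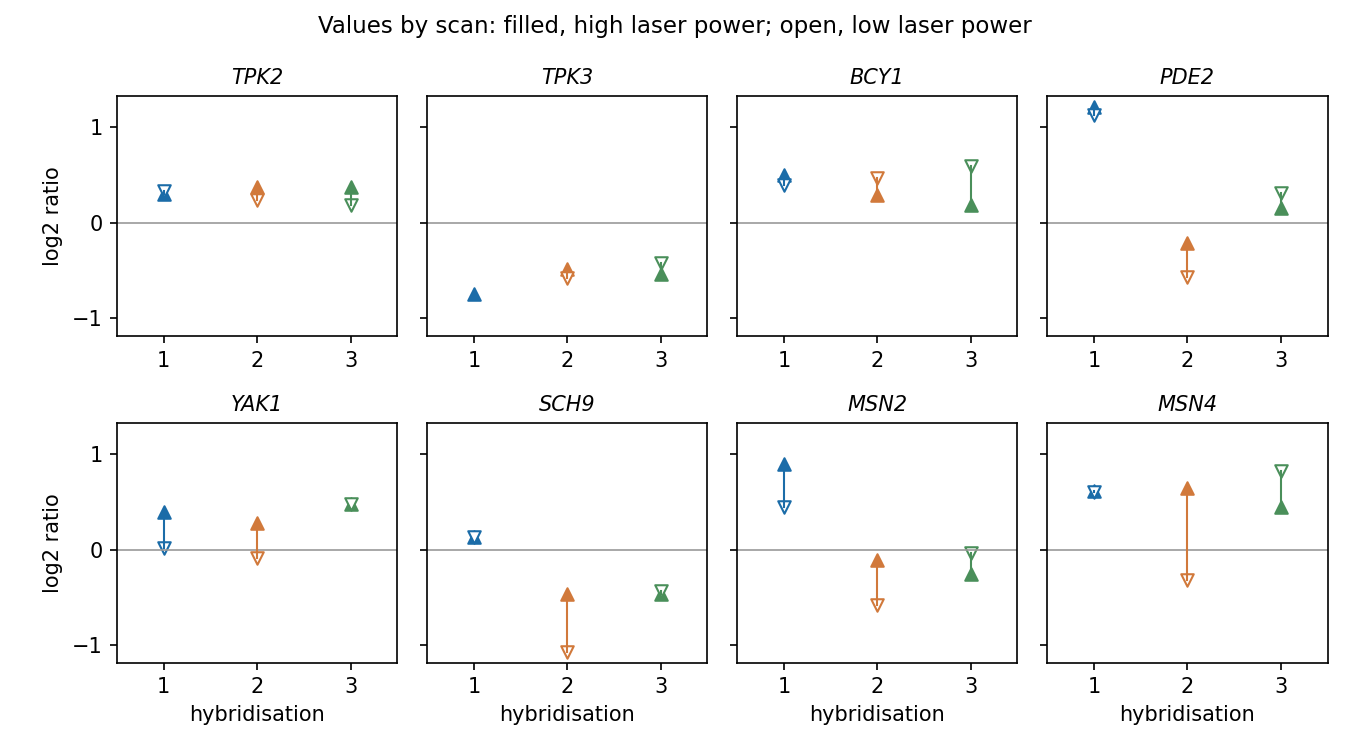
Log2 ratio (vertical axis) in each scan of hybridisations 1 to 3 (horizontal axis), 1 panel per gene. Filled triangles are high and open triangles low laser power scans, and a line joins the scans of an array. The widest gap is that of MSN4 in hybridisation 2, from 0.64 at high to -0.32 at low power, and TPK3 has no low power value in hybridisation 1.

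YAK1, a kinase that opposes kinase A and promotes growth arrest, had ratios of 0.21, 0.096 and 0.48. All were above 0, with hybridisation 3 highest. The mean was 0.26 ± 0.20 (SD, n = 3), or 1.197-fold, with an interval of -0.18 to 0.70 and an adjusted p of 0.344 by limma. The low power scan of hybridisation 2, at -0.085, was the only scan of YAK1 below 0.

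SCH9, the AGC-family growth kinase phosphorylated by TORC1, had ratios of 0.13, -0.77 and -0.45. Hybridisations 2 and 3 were below 0 and hybridisation 1 was slightly above. The mean was -0.36 ± 0.46 (SD, n = 3), or 1.28-fold lower, with an interval of -0.90 to 0.18 and an adjusted p of 0.282 by limma. Without hybridisation 1, SCH9 had a mean of -0.61 and an adjusted p of 0.00466 by limma over the 2 arrays left. In that setting 2 of the 8 genes passed, SCH9 and TPK3, and so did 42.6% of all genes, 20.8% higher and 21.9% lower. After block centring the mean of SCH9 was -0.053, with an adjusted p of 0.889.

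MSN2 and MSN4 encode related zinc-finger activators that bind stress response elements, and they differed in their agreement between arrays. MSN2 had ratios of 0.67, -0.34 and -0.14, so that hybridisation 1 alone was above 0. Its mean was 0.060 ± 0.54 (SD, n = 3), with an interval of -0.52 to 0.64 and an adjusted p of 0.879 by limma. The mean without hybridisation 1 was -0.24, with an adjusted p of 0.303, and after block centring it was 0.25, with an adjusted p of 0.507.

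MSN4 had ratios of 0.61, 0.16 and 0.63. All were above 0, and the low value of hybridisation 2 averaged a high power scan of 0.64 and a low power scan of -0.32. The mean was 0.47 ± 0.27 (SD, n = 3), or 1.38-fold, the highest of the 8 genes, with an interval of 0.0064 to 0.93 and an adjusted p of 0.126 by limma. MSN4 passed the threshold without that single low power scan, at a mean of 0.63 and an adjusted p of 0.0355. It also passed with the high power scans alone, at 0.57 and 0.0442. Over all genes, 454 of 4635 and 463 of 4572 were higher in these settings. The differences of MSN4 over MSN2 were -0.062, 0.51 and 0.78, with a mean of 0.41 ± 0.43 (SD, n = 3) and an exact two-sided sign-flip permutation p of 0.5, also 0.5 when adjusted over the 2 pairs. The mean difference was 0.14 after block centring and 0.22 to 0.64 when 1 hybridisation was left out, the highest without hybridisation 1 and the lowest without hybridisation 3.

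From the highest mean to the lowest, the order was MSN4, BCY1, PDE2, TPK2, YAK1, MSN2, SCH9 and TPK3. Of the 7 pairs of neighbours in that order, 6 differed by less than the SD of their difference over the hybridisations. The exception was MSN2 over SCH9, with differences of 0.54, 0.42 and 0.30 and a mean of 0.42 ± 0.12 (SD, n = 3). Ratios of both genes were highest in hybridisation 1 and lowest in hybridisation 2. The genes above 0 numbered 7 of 8 in hybridisation 1, 4 in hybridisation 2 and 5 in hybridisation 3, while the share of all tested genes above 0 was 46.0%, 48.6% and 49.5%. Genes with the ratios nearest to those of TPK3, by Euclidean distance over the 3 hybridisations, were PRS4 (0.035), BMT2 (0.055) and TCD2 (0.056), and 600 genes lay within a distance of 0.5.

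TPK3 was the gene whose call depended most on processing. It passed in 5 of the 12 alternatives in which it was tested: the high power scans alone (adjusted p = 0.0425 by limma), without hybridisation 1 (0.0211), hybridisation as a random block over the scans (0.0289), scaling between arrays (0.0457) and quantile normalisation (0.0434). In each of these the mean lay between -0.59 and -0.50. Over all genes, 514 of 4572 were lower with the high power scans alone. In the other settings, in the order above, 1170, 938, 818 and 804 of 5349 were lower, against 636 in the main fit. With block centring the mean of TPK3 was -0.23, with an adjusted p of 0.321. The features of TPK3 and PDE2 fell in the same block, whose median over all its features was -0.54, -0.36 and -0.20 in hybridisations 1, 2 and 3. TPK3 was below that median in every hybridisation.

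**Figure D3:**
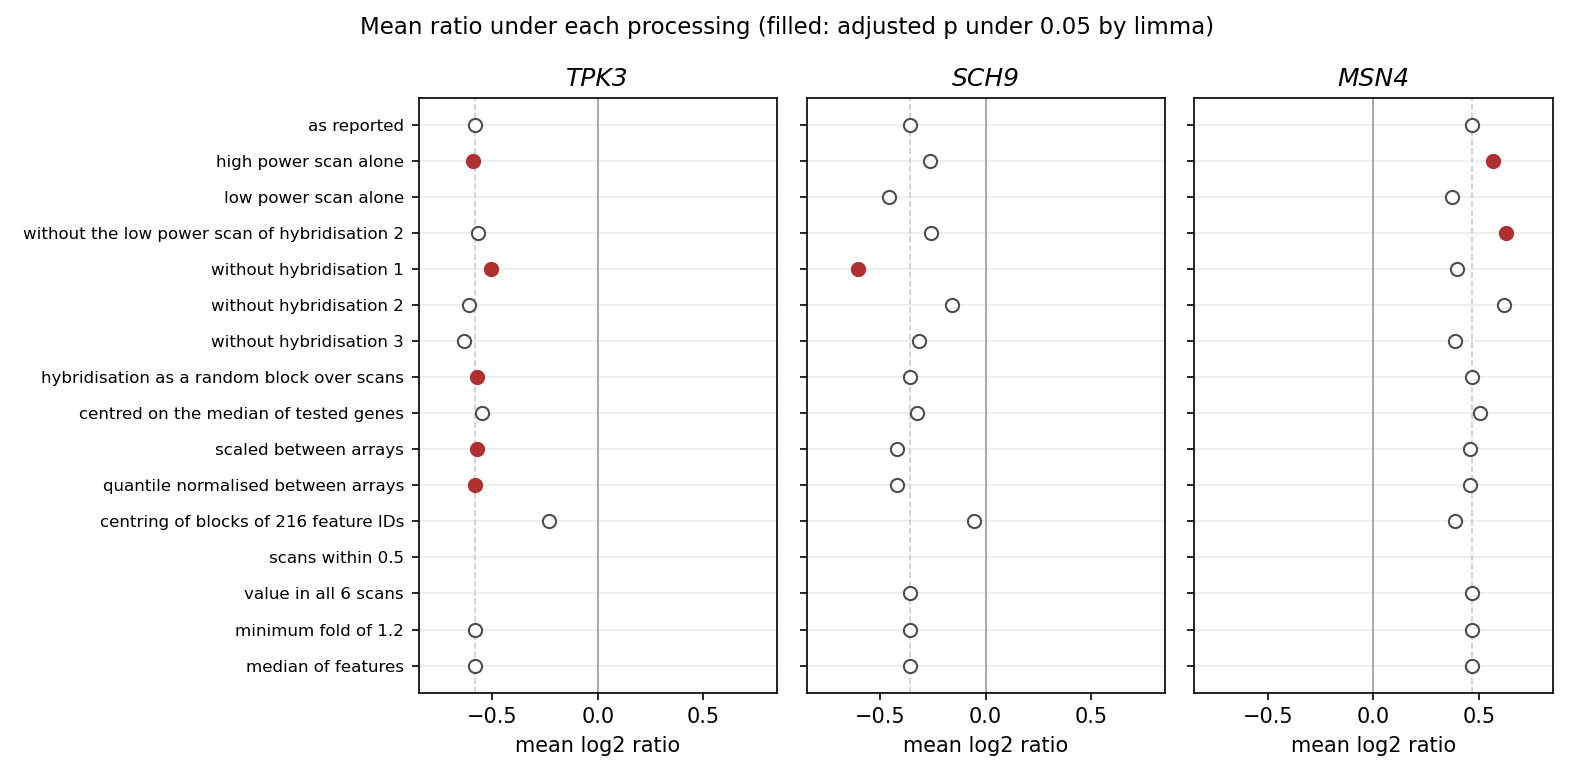
Mean log2 ratio (horizontal axis) of TPK3, SCH9 and MSN4 under each processing (vertical axis), with filled points where the adjusted p by limma is under 0.05 and a dashed line at the mean over the 3 hybridisations. TPK3 has 5 filled points, SCH9 has 1 and MSN4 has 2, all genes keep their sign, and a missing point marks a setting in which the gene was not tested.

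Further genes of the pathway were taken by list. Upstream of the kinase, 8 of 15 genes of Ras and cyclic AMP signalling were measured, of which 1 rose, 1 fell and 6 did not pass, beside 9.14% of all genes that rose and 11.9% that fell. RAS1, a small GTPase that stimulates adenylate cyclase, fell, with ratios of -0.88, -0.89 and -1.03, a mean of -0.93 ± 0.084 (SD, n = 3), or 1.91-fold lower, and an adjusted p of 0.0172 by limma. GPA2, the G protein alpha subunit of the glucose-sensing receptor system, rose, with ratios of 1.15, 0.65 and 0.49, a mean of 0.76 ± 0.34 (SD, n = 3), or 1.696-fold, and an adjusted p of 0.0432 by limma. GPA2 lost its call when the low power scan of hybridisation 2 was left out (adjusted p = 0.0570) and when a fold above 1.2 was required (0.126). RAS2, the other Ras gene, had -0.70, -0.11 and 0.016, and PDE1, the low-affinity phosphodiesterase, had -0.56, 0.41 and 0.66. Both spread widely and did not pass. RAS1 and GPA2 each lost their call when hybridisation 2 or hybridisation 3 was left out, with an adjusted p of up to 0.134 for RAS1 and 0.143 for GPA2.

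In the branch around Rim15, which reaches protein phosphatase 2A and 14-3-3 proteins, 10 of 11 genes were measured, 1 rose, 1 fell and 8 did not pass, which is near the share over all genes (9.14% higher and 11.9% lower). TPD3, the scaffold subunit of protein phosphatase 2A, fell, with ratios of -0.76, -1.29 and -0.71, a mean of -0.92 ± 0.32 (SD, n = 3) and an adjusted p of 0.0241 by limma. BMH2, a 14-3-3 protein, rose, with ratios of 0.60, 1.28 and 0.78, a mean of 0.89 ± 0.35 (SD, n = 3) and an adjusted p of 0.0288 by limma. When a fold above 1.2 was required, neither TPD3 (adjusted p = 0.0634) nor BMH2 (0.0775) passed, and TPD3 did not pass after block centring (0.0733). Neither passed without hybridisation 2 or without hybridisation 3. IGO1, a direct substrate of Rim15, had -0.20, 0.049 and 0.42, and GIS1, a transcription factor downstream of Rim15, had 0.64, -0.31 and 0.32.

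Among 8 measured genes of 10 for TORC1 and other inputs to Sch9, 0 passed by limma and 3 had an unadjusted p under 0.05, near the 38.6% of all genes, with means from -0.52 for the phosphatase SIT4 to 0.99 for TIP41. TIP41, a regulator of phosphatases under TORC1, had ratios of 1.98, 0.62 and 0.37 and an adjusted p of 0.0701, with hybridisation 1 far above the others. Among 12 measured regulators of Msn2 and Msn4, 0 passed by limma, with a list median of 0.026. At an unadjusted p under 0.05 there was 1, SNF1, a kinase active in low glucose, with ratios of -1.24, -0.25 and -0.45. The TORC1 list had 1 gene higher with the low power scans alone, where 409 of all 3444 genes were higher. It also had 1 higher without hybridisation 2, with hybridisation as a random block, after scaling and after quantile normalisation. In those settings 373, 803, 673 and 649 of all 5349 genes were higher. Without hybridisation 1, where 20.8% of all genes were higher and 21.9% lower, the TORC1 list had 2 genes higher and 1 lower, and the Ras and cyclic AMP list 2 higher and 2 lower.

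The targets of Msn2 and Msn4, genes with stress response elements such as those of heat shock proteins and trehalose synthesis, formed the last list. Of 29 targets, all measured, 19 rose, 0 fell and 10 did not pass, beside 9.14% of all genes that rose and 11.9% that fell. The list was chosen with earlier results of these data known, so these counts are a description. Without hybridisation 1, 24 targets rose and 1 fell, beside 20.8% and 21.9% of all genes. In all 3 hybridisations 22 of the targets were above 0, as were 27.5% of all genes. The median mean ratio was 1.26 for the targets, 0.28 for the 8 kinase A and quiescence genes and -0.022 for all genes. The membrane stress protein gene HSP12 had the highest mean ratio, 4.24, followed by the small heat shock protein gene HSP26 (2.91), DDR2 (2.53) and HOR7 (2.37), both stress-induced. The HSP12 ratios of hybridisations 2 and 3, 3.94 and 5.04, rested on the low power scan alone. MSN4 and MSN2 themselves had 0.47 and 0.060, and the difference between the factors and their targets was not tested. With the high power scans alone, 11 of 20 measured targets rose, beside 463 of all 4572 genes, and HSP12 and HSP26 lacked the values to be tested. Without hybridisation 3 the targets' count was 1, HSP12, which was then the single gene called among all 5349.

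**Figure D4:**
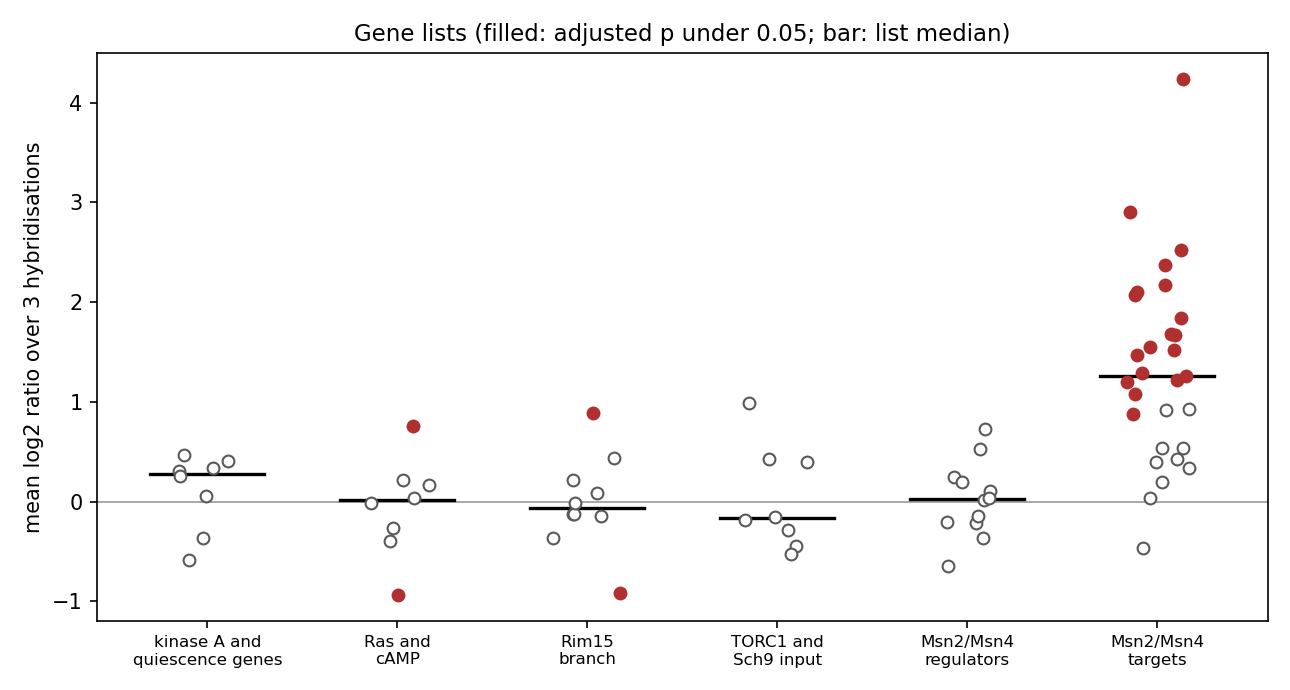
Mean log2 ratio over 3 hybridisations (vertical axis) for the 8 kinase A and quiescence genes and for 5 lists of related genes (horizontal axis). Each point is a gene, filled where the adjusted p by limma is under 0.05, and bars are list medians. Filled points number 0 of 8 for the kinase A and quiescence genes and 19 of 29 for the Msn2 and Msn4 targets. The lists were chosen with earlier results of these data known.

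Markers of other cell states were read in the same fit, in which 9.14% of all genes rose, 11.9% fell and 38.6% had an unadjusted p under 0.05. Of 12 meiosis and sporulation markers, 0 rose, 1 fell and 5 had an unadjusted p under 0.05 by limma. The marker that fell was SPS4, with a mean of -0.95 ± 0.38 (SD, n = 3). The others under that unadjusted p had means above 0: SPO11 (1.70), SPR3 (1.64), SPS100 (1.07) and HOP1 (0.59). In hybridisation 1 SPO11, SPR3 and SPS100 had ratios of 3.86, 3.50 and 2.35, far above their other values. The median ratio of the 12 markers was 0.20, 0.019 and 0.24 in hybridisations 1, 2 and 3. Without hybridisation 1, 4 of these markers rose and 2 fell, beside 42.6% of all genes called in either direction. With hybridisation as a random block 4 rose, without hybridisation 2 and after scaling 3 rose, and after quantile normalisation 2 rose. In those settings 803, 373, 673 and 649 of all 5349 genes rose, in the same order. By limma 0 of these 12 markers passed without hybridisation 3 and when a fold above 1.2 was required, where SPS4 had an adjusted p of 0.0644. Of 6 stationary phase markers, 0 passed by limma and 2 had an unadjusted p under 0.05, with medians of 0.52, 0.11 and 0.45. In this list 2 rose without hybridisation 1, where 20.8% of all genes rose. The same number rose with the random block, after scaling and after quantile normalisation, beside 803, 673 and 649 of 5349 genes. With the high power scans alone 1 rose, beside 463 of 4572 genes. When hybridisation 2, or its low power scan, was left out 1 rose, beside 373 of 5349 and 454 of 4635 genes. Of 6 measured mating genes of 10, 0 rose and 2 fell, STE3, the receptor for a-factor, with a mean of -1.57 ± 0.36 (SD, n = 3), and the pheromone gene MF(ALPHA)2 with -1.42 ± 0.61. Both lost their call without hybridisation 3. The mating list's median was 0.61, -0.43 and -0.17, highest in hybridisation 1. The part of these markers in the values of the kinase A genes was not tested.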

How the data were processed

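The authors deposited log2 ratios of 2-colour arrays, 1 column per scan. Per the labels' descriptions these had been LOWESS-normalised on spots whose flag was 0. Base, direction, scanner, spot software and background treatment are not stated in the labels, and without intensities dim spots could not be filtered. The number of arrays limits the precision. Scans of a hybridisation were averaged, then the features of a gene. The platform annotation gave 1 name to 5513 of 6912 features, several to 0 and none to 1399. A table of assembly R64 renewed 5508 of these names, and 5 stayed as annotated. Only genes with values in each of the 3 hybridisations were tested. Means were set against 0 (two-sided) by lmFit and eBayes of limma 3.58.1 under R 4.3.3. The procedure was first run on simulated data of 3 hybridisations, in which most genes were unchanged. It called 0 of 334 changes of 1.5-fold, 47 of 333 of 2-fold, 219 of 333 of 4-fold and 9 of 25745 unchanged genes. The share of changed genes was smaller than the share that passed in the real data, so the adjustment was stricter in the simulation. By rule, the text names all genes of the set and up to 4 called genes per list with the largest mean ratio, whatever its sign. It also names the 3 genes nearest to TPK3, whose mean was the largest of the set, whatever its sign. Any other gene was picked with its values in view. The genes and lists were chosen with earlier results of these data known. Alternatives covered scans, arrays, centring, scaling, filters and the test.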

Additional observations from a re-analysis of the deposited data

How the results depend on the processing

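Counts of the 8 kinase A and quiescence genes past the threshold were 0 in 9 of 15 alternatives by limma. The count was 2 with the high power scans alone (MSN4 higher, TPK3 lower), 1 without the low power scan of hybridisation 2 (1 higher, MSN4), and 1 lower, TPK3, with hybridisation as a random block, after scaling and after quantile normalisation. Leaving out 1 hybridisation gave 0 to 2 in all and 0 to 2 lower, the 2 being TPK3 and SCH9 without hybridisation 1. Means kept their sign except for PDE2, at -0.074 to 0.70 when 1 hybridisation was left out, and MSN2, at -0.24 to 0.26. MSN2 also turned with the low power scans alone (-0.057), after scaling (-0.0051) and after quantile normalisation (-0.0077). TPK3 minus TPK2 was -0.57 after block centring, and TPK2 minus BCY1, chosen after seeing the data, was 0.025 with the high power scans alone and 0.18 after block centring. The cause of these shifts was not tested. Of all tested genes, 1125 passed (489 higher, 636 lower), and leaving out 1 hybridisation gave 1 to 2281 (1 to 1111 higher, 0 to 1170 lower), with 1 without hybridisation 3, where 2 arrays were left. The count was 1741 (803 higher, 938 lower) with the random block and 514 (230 higher, 284 lower) with a minimum fold of 1.2. It was 326 (165 and 161) of 1513 genes with scans within 0.5 and 544 (289 and 255) of 2672 genes with values in all 6 scans. With the high power scans alone 977 (463 and 514) of 4572 genes passed. Without the low power scan of hybridisation 2 there were 945 (454 and 491) of 4635. After scaling 1491 (673 and 818) of 5349 passed, and after quantile normalisation 1453 (649 and 804). With the low power scans alone, 417 of 3444 were lower. Over the 91 measured list genes 26 passed, 16 of 74 with the high power scans alone, 17 of 77 without the low power scan of hybridisation 2, 8 of 31 with scans within 0.5, 13 of 41 with all 6 scans, and 1 to 45 with 1 hybridisation left out. RAS1, GPA2, TPD3 and BMH2 lost their calls without hybridisation 2 and without hybridisation 3. TPK3, which lacked the low power value of hybridisation 1, was not tested with the low power scans alone, with scans within 0.5 or with all 6 scans. SCH9 and MSN4 had all scan values but were left out by the limit of 0.5 between scans. Each ratio is itself the difference within a pair of treated and untreated samples, so the test against 0 is already paired.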

Other observations

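Feature identifiers carried a pattern of their own. Over 32 equal blocks of consecutive identifiers, the median log2 ratio averaged over hybridisations ran from -0.44 to 0.26. The blocks of the 8 kinase A and quiescence genes spanned nearly all of that range, from -0.37 for the block shared by TPK3 and PDE2 to 0.25 for that of BCY1. SCH9 lay in a block with a median of -0.31 and MSN2 in one with -0.19. The labels do not state whether identifiers follow the position of spots on the array, and the part of position in these ratios was not tested.

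Scans of the same array differed most in hybridisation 2, where the median absolute difference between high and low power over all genes was 0.35, against 0.17 and 0.20 in hybridisations 1 and 3. In hybridisation 2 the value at high power minus that at low power ran from -0.17 for BCY1 to 0.96 for MSN4 among the 8 genes, and was 0.61 for SCH9.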
